A study of Mus musculus with 502 samples.

Results

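The major histocompatibility complex (MHC) is the stretch of chromosome 6 that carries the HLA genes, and it was examined here in genome-wide silencer lists of 3 human cell lines. Its silencers were chosen by position only: every listed silencer on chromosome 6 with its midpoint between 28.5 and 33.5 Mb of hg38 was a member. The rule found 65 silencers of 397136 in all. The 293T list gave 31 of its 125249, the K562 list 14 of its 134159 and the LNCap list 20 of its 137728. They were mapped with Ss-STARR-seq, in which sheared genomic DNA is cloned into a reporter plasmid, transfected, and read as plasmid DNA (input) and as the RNA made from it (output). A silencer is a fragment that lowers the output of the reporter.

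293T is a line derived from embryonic kidney, K562 a leukaemia line with erythroid features and LNCap a prostate cancer line. Each is an established line, and its list is a single sample. The labels give 102 output libraries for 293T, 180 for K562 and 179 for LNCap, with 1 input library for 293T and 40 for LNCap; a K562 input was not analysed here. No treatment or genotype is labelled that separates the lines. The labels name mouse as the organism, whereas the lines and the build are human. The lists hold no replicates and no read counts, so the depth behind a silencer is unknown and the intervals given cover counting error only.

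In the MHC, class I genes encode the molecules that present peptides from inside the cell to CD8+ T cells, and class II genes those that present peptides from outside it to CD4+ T cells. Class III lies between them and holds other immune genes, among them those of tumour necrosis factor and of complement factors. In the textbook order, class I ends with HLA-C, HLA-B and MICA, and the class III genes come next. The HLA-DR and HLA-DQ genes follow, then the peptide transporter genes TAP1 and TAP2 and the HLA-DP genes. The HLA genes are among the most variable between people, and hg38 comes with alternative haplotype sequences for the region. No human annotation was used here, so no silencer was assigned to a gene.

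The MHC was nearly empty of listed silencers in all 3 lines. The 293T density there was 6.2 per Mb (95% interval from the exact Poisson distribution 4.21 to 8.80), against 41.1 per Mb on the rest of chromosome 6 (40.1 to 42.0). K562 had 2.80 per Mb in the MHC (1.53 to 4.70), against 39.2 on the rest of the chromosome (38.2 to 40.2). LNCap had 4.00 per Mb (2.44 to 6.18), against 41.2 (40.2 to 42.2). The density was thus 0.0714 times that of the rest of chromosome 6 in K562, 0.0972 times in LNCap and 0.151 times in 293T, and in no line did the intervals overlap. The region makes up 2.93% of the length of the chromosome. Its share of the chromosome's silencers was 0.215% in K562 (exact binomial interval 0.118 to 0.361), 0.292% in LNCap (0.179 to 0.451) and 0.454% in 293T (0.308 to 0.643). No entry of the lists names an alternative sequence (0 entries). Whether reads were also aligned to the alternative sequences of the MHC is not given in the sources used here, and how uniquely reads were placed was not tested.

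The DNA on either side was not sparse. For 293T, K562 and LNCap in turn, the 5 Mb before the MHC held 263, 281 and 258 silencers, and the 5 Mb after it 213, 317 and 385. The change of density lay close to the region's limits. In the 100 kb before 28.5 Mb the lists held 4, 5 and 2 silencers for 293T, K562 and LNCap, and in the 100 kb after 33.5 Mb they held 10, 14 and 17. The last silencer before class I ended at 28475817 in LNCap, 28488381 in K562 and 28508591 in 293T. After the lone 293T silencer of late class II, the lists resumed at 33487885 in 293T, 33503373 in LNCap and 33520901 in K562. At both ends the edges of the 3 lists lay closer together than the width of 1 bin of 100 kb.

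**Figure D1:**
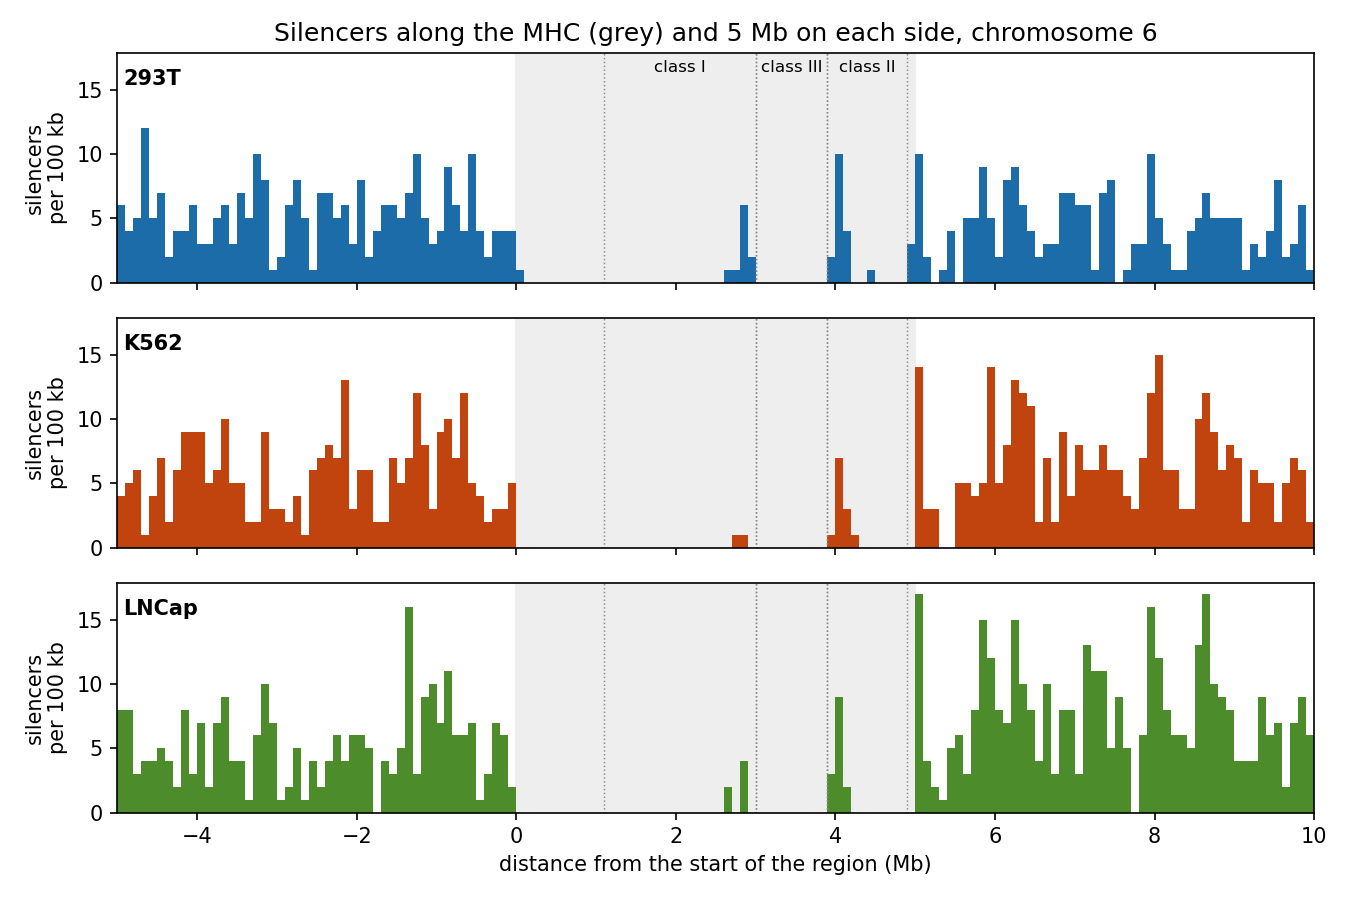
Silencers per 100 kb (y axis, count) against distance from the start of the MHC in Mb (x axis), 1 panel per list; the grey band is the MHC, and dotted lines bound class I, class III and class II. All 3 lists are filled on both sides of the band and nearly empty inside it, except at the end of class I and the start of class II.

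Among windows of 5 Mb laid over the genome with the MHC as one of them, the MHC ranked 28 from the lowest of 589. Its mean count, with lists scaled to equal size, was 21.9, against a median window of 219 and a lower quartile of 183. Of the 27 lower windows, 21 held no silencer of any list. The 27 lay on chromosomes 1, 9, 13, 14, 15, 16, 22 and Y. None was on chromosome 6, where the next lowest of the 33 windows, from 123.5 to 128.5 Mb, held 118, 107 and 132 silencers in 293T, K562 and LNCap.

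**Figure D2:**
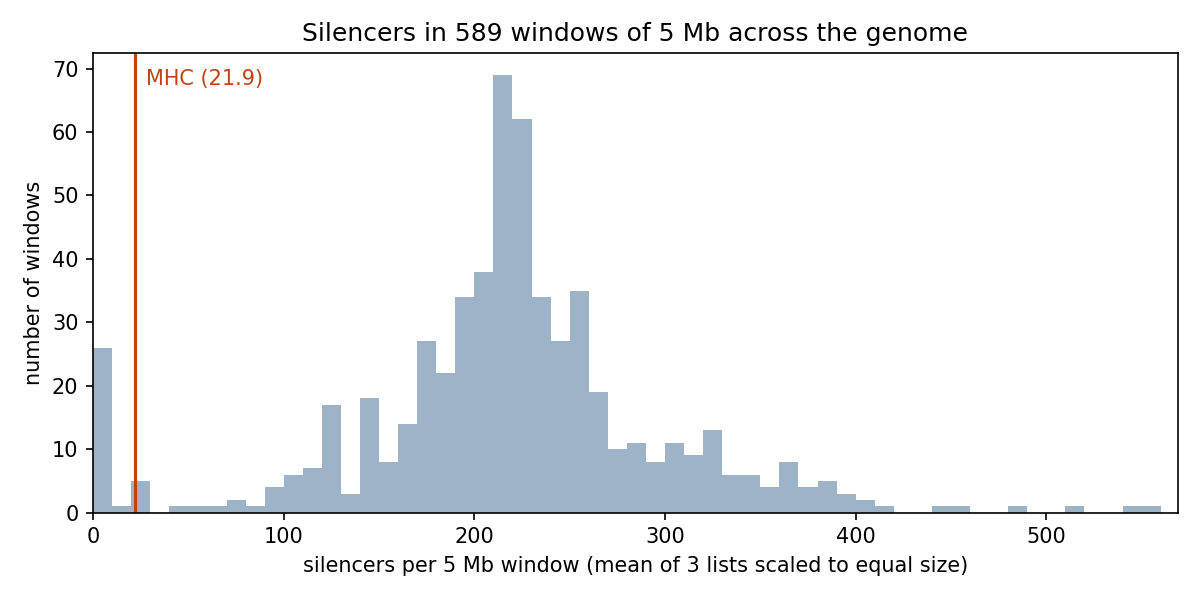
Number of 5 Mb windows (y axis) by silencers per window, as the mean of the 3 lists scaled to equal size (x axis); the red line marks the MHC. The MHC, at 21.9, sits just right of the group of windows at or near 0 and far left of the median of 219.

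Long stretches of the region held no silencer of any line. Over the genome, 64 stretches of at least 0.5 Mb were without a silencer in all 3 lists, and 3 of them lay in the MHC. The longest ran from 28508591 to 31155401, a length of 2.65 Mb, and ranked 7 in the genome; by the class limits it spans the flank before class I and most of class I. A further stretch ran from 31455101 to 32493451 (1.04 Mb, rank 25) and covered all of class III. The third, from 32948901 to 33487885 (0.539 Mb, rank 59), covered the end of class II. Together they took up 84.5% of the region. For scale, the median stretch between neighbouring silencers of the 3 lists was 4170 bp, and the 99th percentile was 48272 bp. When each list was taken alone, its longest stretch in the MHC was 2.75 Mb (K562), 2.68 Mb (LNCap) or 2.66 Mb (293T).

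**Figure D3:**
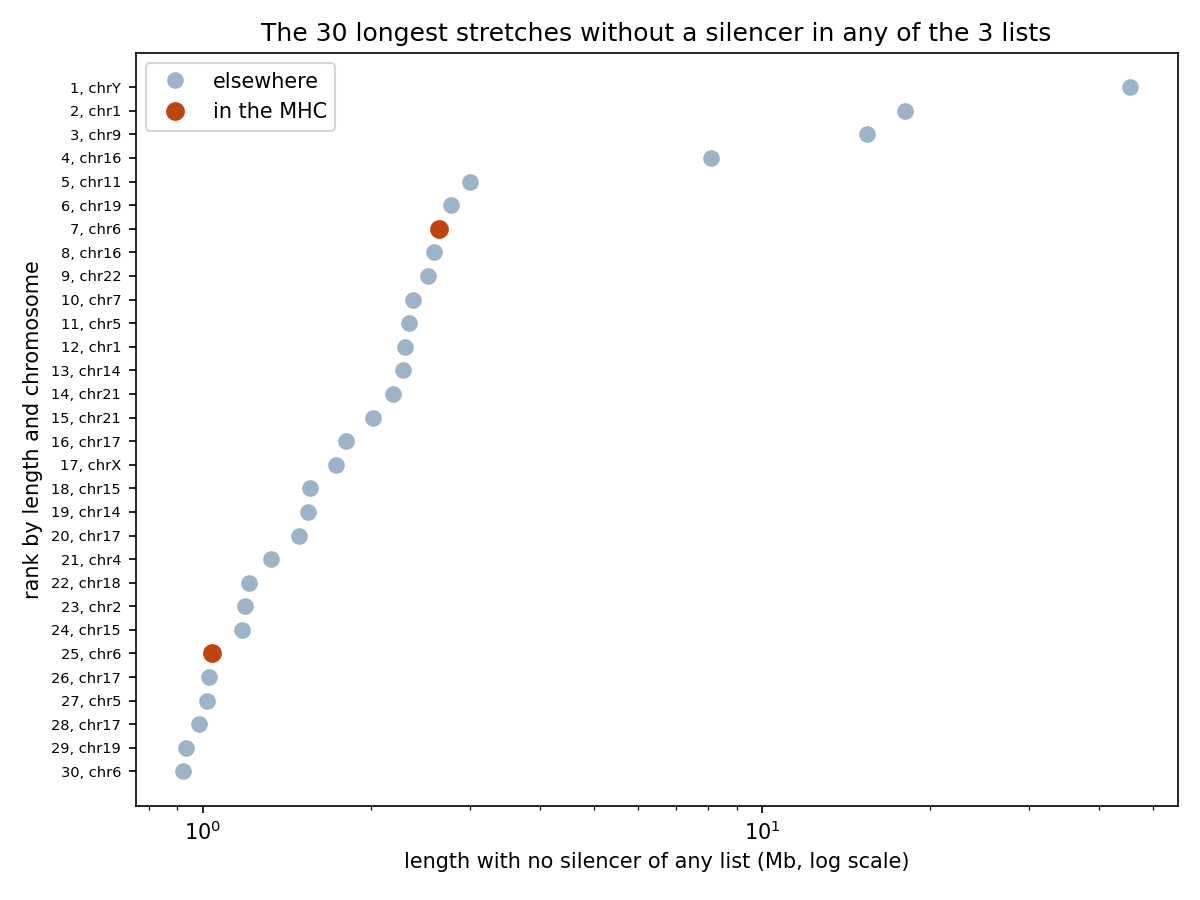
Length in Mb (x axis, log scale) of the 30 longest stretches with no silencer in any list, ranked from the longest (y axis, with the chromosome); red points lie in the MHC. The MHC stretches of 2.65 and 1.04 Mb stand at ranks 7 and 25.

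Counted in bins of 100 kb, 39 of the 50 bins of the MHC held no silencer of any list (78%). Of the 30796 bins outside the MHC, 8.68% were as empty, and on the rest of chromosome 6 the share was 1.63%. In 4 of the 50 MHC bins all 3 lists had silencers, against 24871 of the 30796 bins outside it and 1433 of 1657 on the rest of chromosome 6. The fullest bins by the mean of the scaled lists began at 32.5 Mb (10, 7 and 9 silencers for 293T, K562 and LNCap), 31.3 Mb (6, 1 and 4), 32.6 Mb (4, 3 and 2), 32.4 Mb (2, 1 and 3) and 33.4 Mb (3, 0 and 0). The bin at 32.5 Mb was not sparse: a genome bin held a median of 4 silencers in each list, and at least as many as it held were found in 21.9% of bins in K562, 12.4% in LNCap and 5.13% in 293T.

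By subregion, class II held the most silencers and class III none. Class II (32.4 to 33.4 Mb, a length of 1 Mb) had 12 silencers in K562 (interval 6.2 to 21.0 per Mb), 14 in LNCap (7.65 to 23.5) and 17 in 293T (9.90 to 27.2). These intervals overlapped one another. Each of them lay below the density of the rest of chromosome 6. Class I (29.6 to 31.5 Mb) had 2 silencers in K562, or 1.05 per Mb (0.127 to 3.80), 6 in LNCap, or 3.16 per Mb (1.16 to 6.87), and 10 in 293T, or 5.26 per Mb (2.52 to 9.68). In each line the class I interval lay below the class II interval. Class III (31.5 to 32.4 Mb) had 0 silencers in each list, which allows up to 4.10 per Mb. The flank before class I held 1 silencer and that after class II held 3, all from 293T.

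Where silencers were listed, they sat in 2 short blocks. Runs of silencers less than 200 kb apart, a distance picked after the positions had been seen, gave a block of 300 kb at the end of class I (31155401 to 31455101) and one of 209 kb at the start of class II (32493451 to 32702550). The pair held 60 of the 65 silencers (92.3%) on 10.2% of the region. All 14 K562 and all 20 LNCap silencers of the MHC were in them, and 26 of the 31 of 293T. By the textbook order, the end of class I is the part with HLA-C, HLA-B and MICA, and the start of class II the part with the HLA-DR and HLA-DQ genes. Since their edges were set by the silencers themselves, the densities of the blocks are a description: 76.5, 57.4 and 67.0 silencers per Mb for 293T, K562 and LNCap in the class II block, and 33.4, 6.67 and 20.0 in the class I block.

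The class II block began with the single place that all 3 lines had in common. At chr6:32493601-32493901 the 293T list held a silencer of 300 bp with a score of 2.3, and the K562 list one with the same start and end and a score of 2.4. The score is the authors' activity value, which has no stated scale and is not below 2 in any list. LNCap had silencers from 32493601 to 32493751 (score 2.3) and from 32493801 to 32493901 (score 2.7) inside it, and another 100 bp further on, from 32494001 to 32494101 (score 2.2). 293T had another one just before it, from 32493451 to 32493551 (score 2). The 3 lines thus marked the same place, and since the scale of the score is unknown its values were not compared between lists.

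Further into this block the lines lay near one another but seldom on the same bases. LNCap had a silencer from 32502901 to 32503051 (score 2.7), followed within 1 kb by 3 of K562 between 32503201 and 32503891 (scores 2.1 to 3.0). The K562 silencer from 32511561 to 32511751 (score 2.2) contained the LNCap silencer from 32511701 to 32511751 (score 3.5), which was the only other overlap between lists in the MHC. Between 32531141 and 32531981, 1 K562 silencer (score 2.2) was followed by 3 of LNCap (scores 2.0 to 2.6), the first of which began at the base where the K562 one ended. At 32601161 a K562 silencer (score 2.0) again ended where a LNCap silencer (score 2.6) began, with a second LNCap silencer up to 32601461 (score 2.3).

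The highest score of each list within the MHC was also in this block, which held more silencers of each list than the class I block. Its median scores were 2.2, 2.2 and 2.3 for 293T, K562 and LNCap. Those of the class I block were higher, at 2.5, 2.3 and 2.35, with only 2 silencers in K562. This difference was not tested. Scores are ranked within a list only. In 293T the highest scores belonged to the silencers from 32600081 to 32600251 (score 4.8) and from 32579989 to 32580039 (score 3.7). A score of 3.3 followed at 2 silencers, from 32543451 to 32543501 in this block and from 31365401 to 31365551 in class I. The silencer with 4.8 closed a group of 4 within 990 bp, from 32599261, that no silencer of another list overlapped. In LNCap the highest were 4.1 (32545621 to 32545721), 3.5 (32511701 to 32511751) and 2.7 at 3 silencers, 1 of them in class I (31339951 to 31340101). In K562 they were 3.0 (32503741 to 32503791), 2.7 (32619501 to 32619551) and 2.5 at 2 silencers, 1 of them in class I (31351651 to 31351701). The top silencer of each line was held by that line alone, which is the usual case. Over the genome, 340936 of 367012 merged regions were held by 1 list. The nearest silencer of another list was 860 bp away for the top silencer of 293T (K562). It was 690 bp away for that of K562 (LNCap) and 2120 bp for that of LNCap (293T). The widest silencers of 293T and K562, 300 bp, were those at the shared place, beside another of 300 bp of K562 in class I, and the widest of LNCap had 250 bp (32538451 to 32538701).

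**Figure D4:**
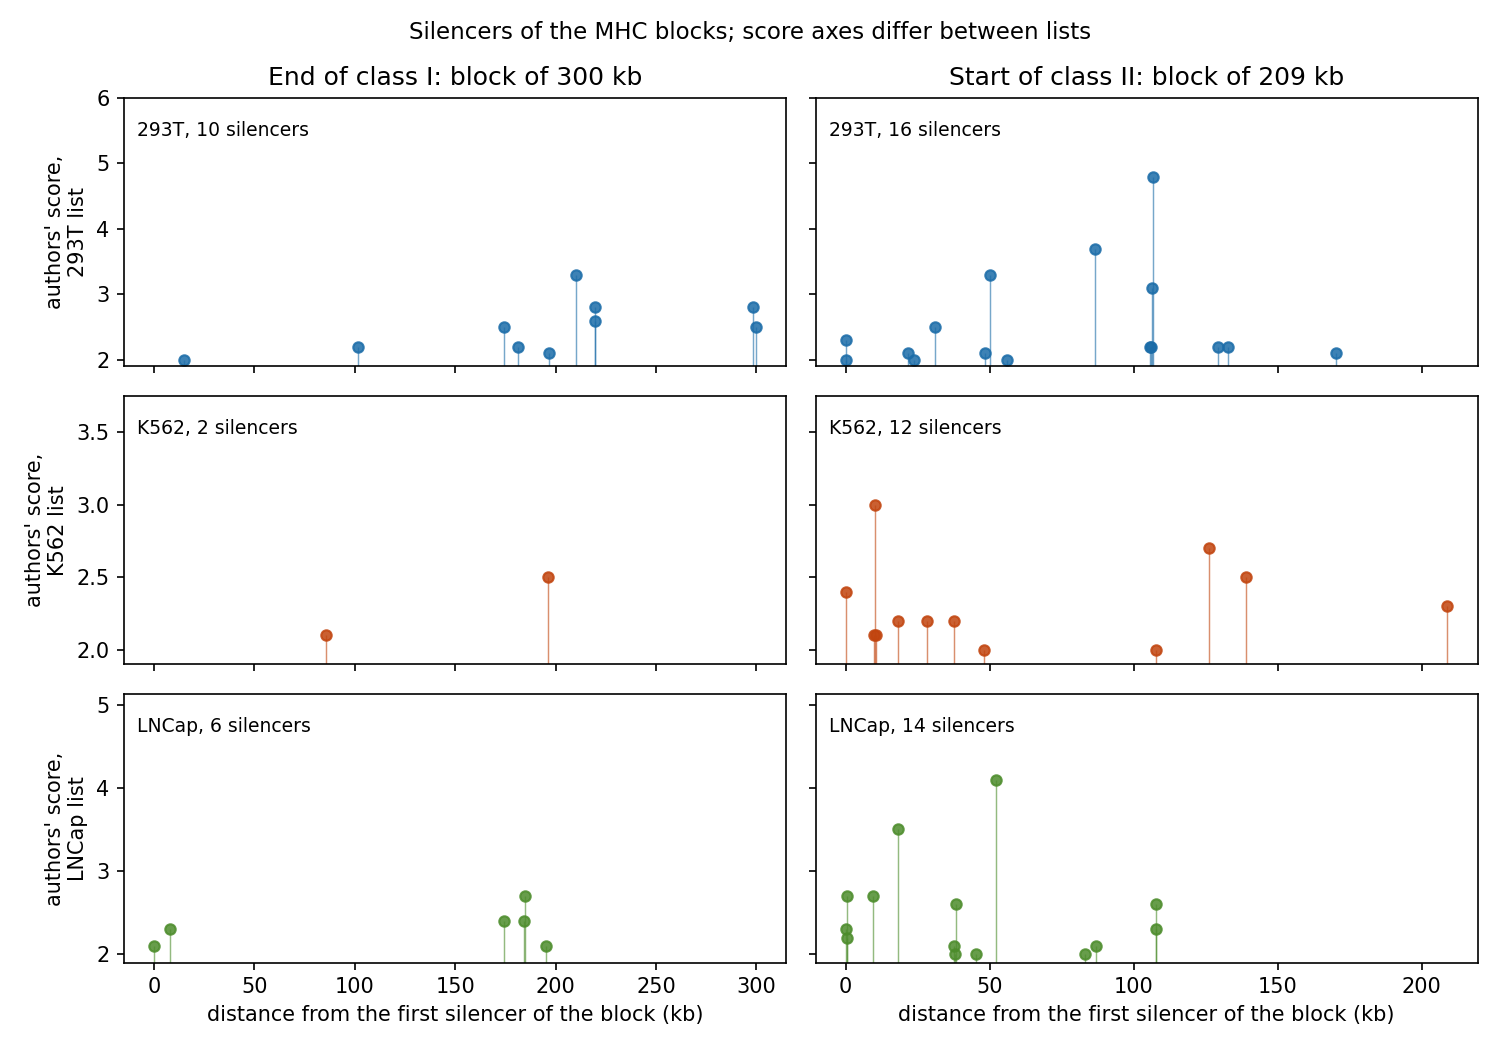
Authors' activity score (y axis, with its own range for each list) against distance in kb from the first silencer of the block (x axis), for the block at the end of class I (left) and that at the start of class II (right); each row is a list and each point a silencer. In every row the highest point is on the right, where there are more points. The class II block holds 16, 12 and 14 points for 293T, K562 and LNCap, and the class I block 10, 2 and 6.

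The class I block held 10 silencers of 293T, 2 of K562 and 6 of LNCap. No place in it was shared. The nearest approach was a 293T silencer from 31329600 to 31329851 (score 2.5) that ended where a LNCap silencer began (31329851 to 31330051, score 2.4). LNCap, K562 and 293T silencers followed each other between 31350801 and 31352401, with scores of 2.1, 2.5 and 2.1 and gaps of 800 and 500 bp. Beyond 31365401 only 293T had silencers: 5 of them up to 31455101, with scores of 2.5 to 3.3. The 2 K562 silencers of class I lay from 31241100 to 31241400 (score 2.1) and from 31351651 to 31351701 (score 2.5).

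Outside the blocks all 5 silencers were of 293T. One lay at 28508491 to 28508591 (score 2.2) at the region's start, one alone in class II at 32948801 to 32948901 (score 2.1), and 3 between 33487885 and 33495593 (scores 2.0 to 2.3) at its end. The lone class II silencer was 246251 bp from the nearest silencer of another list.

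Relative to the size of the lists, 293T had the most silencers in the MHC and K562 the fewest. The region held 0.0248% of the 293T list (Wilson 95% interval 0.0174 to 0.0351), 0.0145% of the LNCap list (0.00940 to 0.0224) and 0.0104% of the K562 list (0.00622 to 0.0175). The intervals of 293T and K562 overlapped barely at their ends, and that of LNCap overlapped both. Scaled to equal list size, 293T had 1.98 times the mean of the other lists (1.35 to 2.82 from the counting error of its own count alone), K562 0.531 times (0.291 to 0.892) and LNCap 0.825 times (0.504 to 1.27). Among all windows of 5 Mb with a scaled mean of at least 20 silencers, 1 had a higher 293T ratio and none a lower K562 ratio. Most of those windows hold about 10 times as many silencers, so their ratios vary less by counting. The minimum of 20 lies just under the 21.9 of the MHC, so the MHC is the sparsest window kept. Sparser windows, whose ratios vary more, were left out. One of them, on chromosome 15 from 13.5 to 18.5 Mb, held 6, 2 and 1 silencers in 293T, K562 and LNCap. In the 5 Mb before the MHC the 293T ratio was 1.06, and in the 5 Mb after it 0.659. Within the class II block it was 1.34, and within the class I block 2.73. The class I value rests on only 10, 2 and 6 silencers of 293T, K562 and LNCap. Both blocks were drawn from these same silencers. With 1 list per line the difference between lines was not tested.

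Median scores in the MHC were within 0.1 of those of the whole lists. The share of wide silencers was above that of each list, but beyond its counting interval in 293T only. The median scores came to 2.2 for 293T (2.3 for its whole list), 2.2 for K562 (2.2) and 2.3 for LNCap (2.2). Scores of at least 3 were found in 5 of 31 silencers in 293T, against 14.2% of its list. K562 had 1 of 14, against 9.85%, and LNCap 2 of 20, against 11.6%. The median width was 50 bp in 293T and K562, as in their whole lists, and 100 bp in LNCap (50 bp in its list, which lies at the end of the interval of 50 to 150 bp for the MHC median). Silencers at least 150 bp wide were 9 of 31 in 293T (29.0%, Wilson interval 16.1 to 46.6, against 14.5% of its list), 5 of 14 in K562 (35.7%, 16.3 to 61.2, against 18%) and 6 of 20 in LNCap (30.0%, 14.5 to 51.9, against 17.9%). The interval of 293T left out the list's share, and those of K562 and LNCap held it. The MHC silencers of 293T covered 3264 bp, those of LNCap 2090 bp and those of K562 1690 bp.

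Many starts in the lists lie on a grid of 50 bp, counted from 0 or 1 at the chromosome's start. Off that grid were 1 of 18 silencers in the class I block and 24 of 42 in the class II block. Of the whole lists, 41.7% of 293T silencers, 50.3% of K562 and 53.0% of LNCap silencers started off it. The blocks were picked from the data, so this was not tested.

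Few MHC silencers overlapped one of another line, as in the whole lists. Overlap was counted from 1 bp. In 293T, 1 of 31 MHC silencers overlapped K562 (3.23%, Wilson interval 0.572 to 16.2), against 3.30% of the whole list, and 1 of 31 overlapped LNCap, against 3.58%. In K562, 1 of 14 overlapped 293T (7.14%, interval 1.27 to 31.5), against 3.03%, and 2 of 14 overlapped LNCap (14.3%, interval 4.01 to 39.9), against 15.7%. In LNCap, 2 of 20 overlapped 293T (10.0%, interval 2.79 to 30.1), against 3.23%, and 3 of 20 overlapped K562 (15.0%, interval 5.24 to 36.0), against 15.4%. Every interval of overlap held the share of the whole list. With midpoints within 500 bp, 5 of 20 LNCap silencers had a 293T neighbour (25%, interval 11.2 to 46.9), against 9.65% of the list. Of the 6 ordered pairs, only this interval left out the list's share. However, 3 of these LNCap silencers form a single group, from 32493601 to 32494101. The interval takes silencers as independent, so it is too narrow here. At the same distance, 9 of 20 LNCap silencers had a K562 neighbour (45.0%, interval 25.8 to 65.8), against 27.0% of the list. In the other direction it was 5 of 14 (35.7%, interval 16.3 to 61.2), against 27.2%. A K562 neighbour was near 2 of 31 silencers of 293T, against 10% of its list, and a LNCap neighbour near 4 of 31, against 10.6%. Of the K562 silencers, 1 of 14 had a 293T neighbour, against 9.21%. Silencers that lie close together in a list count the same neighbour more than once, and no difference was tested. The MHC silencers formed 61 merged regions, of which 59 were held by 1 list, 1 by 2 lists and 1 by all 3. Over the genome, 340936 of 367012 merged regions were held by 1 list, and 0.372% by all 3.

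Since most silencers lay in the blocks, the median gap reflects spacing inside them and not the long empty stretches. It was somewhat below that of the whole list in each line. Median gaps between neighbours were 11125 bp for 293T, 10180 bp for K562 and 8100 bp for LNCap, against 12850, 11477 and 11000 bp in the whole lists. Gaps of up to 500 bp were 6 of 30 for 293T (20.0%, Wilson interval 9.51 to 37.3, against 13.8% of its list). They were 2 of 13 for K562 (15.4%, 4.33 to 42.2, against 13.3%) and 6 of 19 for LNCap (31.6%, 15.4 to 54.0, against 14.4%). Only the LNCap interval left out the list's share. Gaps of up to 500 bp that lie side by side are not independent of each other, so the intervals are too narrow. Groups of 3 or more silencers with such gaps were found only in the class II block: 1 in 293T (4 silencers from 32599261 to 32600251), 1 in K562 (3 from 32503201 to 32503891) and 2 in LNCap (3 from 32493601 to 32494101 and 3 from 32531191 to 32531981). They held 12.9% of the MHC silencers of 293T, 21.4% of those of K562 and 30.0% of those of LNCap, against 4.47%, 4.52% and 5.09% of the whole lists. Silencers of a group are not independent of each other, and this difference was not tested.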

How the data were processed

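Ss-STARR-seq silencers were analysed as 1 list per line for 293T, K562 and LNCap. Bowtie2, SAMtools and hg38 are named in the submitters' processing notes, with no versions. For the region caller, its thresholds, the input and any pooling of libraries, nothing is stated in those sources. The deposited activity score, per the file headers a column of its own, has no stated scale and was compared only within a list. The exception is the alternative with scores of at least 3, which put the same cut on all lists. Positions are printed as deposited, with an unstated first base number.

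Broken lines and lines wider than 5000 bp were left out (58, 12 and 25 lines for 293T, K562 and LNCap). Chromosome lengths are the highest listed ends. Members were assigned by midpoint. Intervals are exact Poisson, exact binomial or Wilson at 95%. The members and lists were chosen with earlier results of these data known; the naming rule took regions held by all lists, the 3 highest scores per list, the 5 fullest bins and groups of 3 or more silencers with gaps up to 500 bp. The blocks, the ranking of empty stretches and the grid offsets were added after the positions were seen. The share of silencers at least 150 bp wide was not among the planned results. No test between lines was run. Procedures were tested on simulated data with a planted depletion. A human genome or annotation was not used here, so gene groups, base composition and motifs were not analysed. Python 3.11.15, numpy 2.4.6, scipy 1.17.1 and matplotlib 3.10.9 were used.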

Additional observations from a re-analysis of the deposited data

How the results depend on the processing

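Of 162 values recomputed under alternatives for 33 results, 136 stayed within the counting interval of the main value (for the count of shared regions, within 1.5 times) and 26 moved. The low density held under each alternative run: 0.0506 to 0.174 times the rest of chromosome 6, except per Mb of occupied 100 kb bins, where it was 0.676 in 293T, 0.320 in K562 and 0.435 in LNCap, because 39 of 50 MHC bins are then left out. With autosomal windows of a scaled mean of at least 20 only, 0% were lower than the MHC (21.9), but that minimum lies just under the MHC and removes every lower window, so the value says nothing of its rank. Counting fewer silencers lowered the densities themselves. Above the list's median score they were 2.2, 1.2 and 2.4 per Mb in 293T, K562 and LNCap, with class II at 5.0 in 293T and 5.0 in K562; at scores of at least 3 they were 1.0, 0.2 and 0.4.

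Sharing rested on few silencers. The region held by all lists was lost above the median score and at scores of at least 3 (0 regions in each). Its 293T silencer has a score of 2.3, equal to that list's median, and only scores above the median were kept. Its K562 and LNCap silencers lay above the medians of their lists. None of its silencers has a score of 3, so its loss at that cut was fixed beforehand. The overlap was 0% above the median score for 293T in K562 and in LNCap and for K562 and LNCap in 293T. At scores of at least 3 it was 0% for all 6 ordered pairs, with only 5, 1 and 2 MHC silencers left in 293T, K562 and LNCap. For LNCap in K562 the overlap was 5.0% when 50% overlap was required. With midpoints within 500 bp it was 45.0%, against 27.0% of the list. The shares of the whole lists under the score cuts and the 50% rule were not computed. Whether sharing in the MHC differs from them there cannot be told. The 293T ratio ranged from 1.47 above the median score to 2.80 at scores of at least 3. The value of 2.80 rests on 5, 1 and 2 silencers of 293T, K562 and LNCap. It also puts the same score cut on all lists, although the scale of the score is unknown. With the pair of fullest blocks only, an alternative added after the data were seen, the 293T ratio was 1.66. The LNCap ratio was 1.19 above the median score, on the other side of 1.

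No paired analysis was possible because each line has 1 list and the lists name no library. The alternatives on gene distance and on base composition were not run, since no human annotation or genome was used here.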

Other observations

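Other long stretches without a silencer of any list, picked by eye from the ranked stretches, lay on chromosome 16 from 14426391 to 17010933 (2.58 Mb, rank 8), chromosome 14 from 92877301 to 94416501 (1.54 Mb, rank 19), chromosome 17 from 45308901 to 46292101 (0.983 Mb, rank 28) and chromosome 19 from 54170701 to 55102951 (0.932 Mb, rank 29). Others of similar length were left out, such as those on chromosome 15 (1.17 Mb, rank 24) and chromosome 17 (1.02 Mb, rank 26). Whether the listed stretches share anything with the MHC was not tested.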
